A study of Mus musculus with 9 samples.

Results

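The genes described here are 48 genes of the cell cycle and of DNA replication, among 27179 genes counted in each library. They were chosen by name, with earlier results of these data known, and each was found in the count files by its mouse Entrez number. Of these, 22 act around the start of DNA synthesis and in S phase, the stage in which the chromosomes are copied, and are called S phase genes below. The other 26 act mainly in G2 and mitosis and are called mitosis genes, although the proliferation marker Mki67, the topoisomerase gene Top2a and the tubulin-binding Stmn1 are not mitosis genes in the strict sense, and Ccna2 acts in S phase too. All 48 are annotated as protein-coding, and all 48 passed the filter on low counts in both tests across genes. RNA was sequenced from natural killer (NK) cells of the spleen of C57BL/6 mice. The groups were Id2-null NK cells kept for 7 days in interleukin-15 (IL-15) with 3 libraries, wild-type (WT) NK cells kept in the same way with 3 libraries, and 3 wild-type populations sorted from spleen without culture and named Immature, M1 and M2, with 1 library each. The study addressed the part of the transcriptional regulator ID2 in NK cell fate and in the response to IL-15, a cytokine on which NK cells depend for survival and which makes them divide in culture.

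The labels state culture for samples 1 to 6 and sorting for samples 7 to 9 without numbering them otherwise, and they were taken in listed order. The sources used here do not say how Id2 was deleted, by which surface markers the cells were sorted, or if replicates are separate animals. The p-values therefore measure only how far these libraries differ among themselves, and that spread may be technical.

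A dividing cell first loads the MCM helicase onto replication origins with the help of CDC6 and CDT1, and then opens the DNA and copies it with PCNA as the sliding clamp of the polymerases, while ribonucleotide reductase and thymidine enzymes supply the building blocks. E2F transcription factors switch these genes on at the passage from G1 to S phase. Later, cyclins A and B with the kinase CDK1 drive the cell into mitosis, the Aurora and Polo kinases and the spindle checkpoint control chromosome attachment, and the anaphase-promoting complex ends mitosis by marking cyclins and other proteins for destruction. FOXM1 and B-MYB, with the DREAM and MuvB complexes, act on promoters of the mitosis genes through a short element called CHR, often near CCAAT boxes. Resting lymphocytes keep most of these genes low and raise them when cytokines or antigen make them divide.

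Total counts ran from 4128414 to 4831831 per library, so that 3 counts, the level that a count of 0 still allows, equal a level of 0.621 to 0.727 CPM, that is, counts scaled to the library total. Levels are in CPM throughout unless a value is said to be per length. Id2 itself stood at 12.5, 24.4 and 9.82 CPM in Id2-null cultures, against 420.4, 407 and 403 CPM in WT cultures, as the labels say. The libraries also differed in the sex of the cells. Xist stood at 672 to 956 CPM in Id2-null cultures and at 0.211 to 1.24 CPM in WT cultures, and the Y-linked Ddx3y at 0.223 to 0.669 CPM in Id2-null cultures and at 75.1 to 80.9 CPM in WT cultures. Sex and genotype therefore cannot be told apart in any comparison of the cultures. The sorted libraries held both, with Xist at 80.2 to 121 CPM and Ddx3y at 32.9 to 43.02 CPM. Cultured WT and sorted cells thus differed in these markers too, and the part of sex in that comparison was not tested.

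In the RefSeq promoter table of GRCm38.p6, which gives 250 bases before to 50 bases after a start, 38 of the 48 genes were found, with 41 promoters in all. The letters TTTGAA, the core of the CHR element, stood on either strand in 15 of 20 promoters of mitosis genes (75%), in 3 of 21 promoters of S phase genes (14.3%) and in 17.9% of all 32851 promoters of the table. The letters CCAAT stood in 18 (90%), 14 (66.7%) and 37.4% of them. The E2F letters TTTCCCGC, TTTCGCGC, TTTGCCGC or TTTGGCGC stood in 1 promoter of a mitosis gene, that of Cdk1 (5%), in 8 of S phase genes (38.1%) and in 2.26% of all. TTTGAA and CCAAT together stood in 15 of the 20 mitosis promoters and in 6.95% of all. Stretches matched by more than one set of E2F letters were counted once for each match. These are matches of letters, described without a test, and they say nothing of binding.
Of the 6 promoters below, 4 are shown for the log2 folds of their genes in cultured over sorted cells. Cenpe and Cenpf had the largest of the 48, and E2f8 and Tk1 the largest of the S phase genes. Mki67 and Mcm6 were added after the letters had been searched, as a promoter with several CHR cores and one with several E2F matches. Each is printed 5′ to 3′ on the strand of its gene, from RefSeq with GRCm38.p6 coordinates, and capitals mark the letters searched on either strand.
Cenpe, chr3:135212313-135212612, plus strand: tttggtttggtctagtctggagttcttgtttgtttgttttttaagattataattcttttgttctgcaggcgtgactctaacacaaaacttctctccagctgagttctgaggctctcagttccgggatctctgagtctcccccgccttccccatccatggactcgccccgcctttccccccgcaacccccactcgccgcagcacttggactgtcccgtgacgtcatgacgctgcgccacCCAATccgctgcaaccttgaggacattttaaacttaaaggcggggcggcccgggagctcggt
Cenpf, chr1:189688037-189688336, minus strand: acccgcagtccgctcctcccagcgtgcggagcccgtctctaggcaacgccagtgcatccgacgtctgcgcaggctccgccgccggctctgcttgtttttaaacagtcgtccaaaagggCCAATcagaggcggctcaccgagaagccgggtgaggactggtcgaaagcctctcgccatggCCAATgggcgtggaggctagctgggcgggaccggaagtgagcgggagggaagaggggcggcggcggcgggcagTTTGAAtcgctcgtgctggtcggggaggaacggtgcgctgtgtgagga
E2f8, chr7:48881547-48881846, minus strand: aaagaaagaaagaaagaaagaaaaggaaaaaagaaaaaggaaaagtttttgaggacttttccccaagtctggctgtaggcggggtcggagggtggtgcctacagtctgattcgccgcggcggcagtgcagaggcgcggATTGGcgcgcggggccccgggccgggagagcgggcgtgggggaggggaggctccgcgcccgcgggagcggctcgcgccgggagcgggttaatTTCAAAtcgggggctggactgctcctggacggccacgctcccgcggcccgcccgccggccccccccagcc
Tk1, chr11:117825965-117826264, minus strand: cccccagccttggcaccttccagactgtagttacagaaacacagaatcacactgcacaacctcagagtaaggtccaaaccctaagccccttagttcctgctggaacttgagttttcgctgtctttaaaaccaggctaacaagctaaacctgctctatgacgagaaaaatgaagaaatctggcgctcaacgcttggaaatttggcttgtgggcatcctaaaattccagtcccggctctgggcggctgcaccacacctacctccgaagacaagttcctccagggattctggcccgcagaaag
Mki67, chr7:135716330-135716629, minus strand: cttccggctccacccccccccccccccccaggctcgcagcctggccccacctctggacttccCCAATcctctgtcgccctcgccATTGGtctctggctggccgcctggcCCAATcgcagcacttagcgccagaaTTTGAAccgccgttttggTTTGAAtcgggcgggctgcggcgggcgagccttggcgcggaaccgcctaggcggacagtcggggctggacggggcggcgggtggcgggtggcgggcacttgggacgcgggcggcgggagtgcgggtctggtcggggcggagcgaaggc
Mcm6, chr1:128359656-128359955, minus strand: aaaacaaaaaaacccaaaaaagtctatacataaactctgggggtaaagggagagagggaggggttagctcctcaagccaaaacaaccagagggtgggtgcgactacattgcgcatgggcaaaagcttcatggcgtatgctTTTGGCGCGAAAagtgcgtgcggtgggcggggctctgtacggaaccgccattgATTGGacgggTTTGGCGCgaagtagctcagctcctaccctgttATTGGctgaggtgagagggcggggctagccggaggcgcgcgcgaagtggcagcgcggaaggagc
The Mki67 stretch holds 2 CHR cores and 3 CCAAT boxes, and the Mcm6 stretch holds 3 E2F matches and 2 CCAAT boxes with no CHR core. Cenpe has 1 CCAAT box and no CHR core in this window, Cenpf has 1 CHR core and 2 CCAAT boxes, E2f8 has 1 CHR core and 1 CCAAT box, and the Tk1 stretch holds none of the letters searched.

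Most of the 48 genes were higher in IL-15 cultures than in sorted cells. Of the 48 genes, 46 rose in cultured WT cells relative to the sorted cells and 0 fell (edgeR quasi-likelihood test over all genes, called at a Benjamini-Hochberg adjusted p under 0.05). Among all 11117 genes tested, 27.4% rose and 29.4% fell, or 56.8% in either direction. All 26 mitosis genes rose, with a median log2 fold of 3.05 (8.30-fold), and 20 of 22 S phase genes rose, with a median of 2.06 (4.17-fold), whereas the median over all genes was -0.02. Pcna and E2f2 did not pass the test. In the 46 genes that rose every WT culture was above every sorted library, which held for 38.6% of all genes tested. Such RNA measurements cannot tell apart fewer dividing cells from less RNA per cell. With library totals in place of TMM scaling the median of all genes moved up by 0.167 on the log2 scale, and 3726 genes rose and 2604 fell in place of 3047 and 3273, while the calls among the 48 genes numbered 46 again. The sorted side is 1 library of each population, so its spread includes the differences between the populations. On the log2 scale the medians were 2.85 for S phase and 3.76 for mitosis genes without the Immature library. They were lower, at 1.765 and 2.742, without M1, and at 1.765 and 2.895 without M2. The same 3 WT cultures also serve as the controls of the Id2-null comparison further on.

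**Figure D1:**
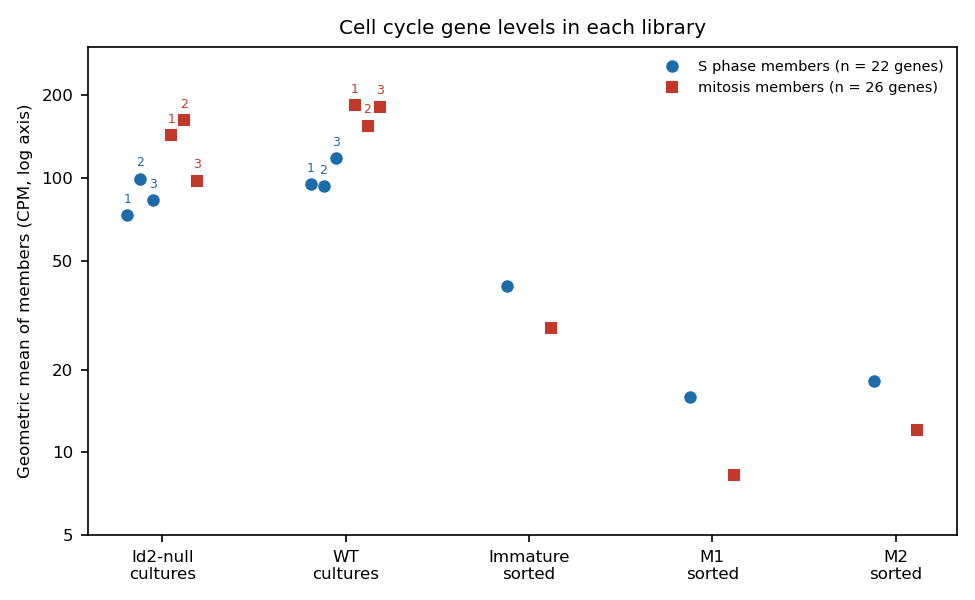
Geometric mean level in CPM of the 22 S phase genes and of the 26 mitosis genes in each of the 9 libraries, on a log axis, with 1 point per library and the replicate number beside the cultures. The mitosis genes stand above the S phase genes in the cultures and below them in the sorted libraries, where their geometric means are 28.5, 8.24 and 12.1 CPM in Immature, M1 and M2 cells.

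Taken over each class, the order of the S phase and mitosis genes was opposite in cultured and sorted cells. The geometric mean of the mitosis genes was 184, 155 and 182 CPM in the WT cultures, against 28.5, 8.24 and 12.1 CPM in Immature, M1 and M2 cells. For the S phase genes it was 94.7, 93.1 and 118 CPM, against 40.3, 15.9 and 18.2 CPM. Mitosis genes thus stood 1.54 to 1.94 times above S phase genes in the WT cultures and at 0.517 to 0.707 times their level in the sorted cells. These are levels per library and not per gene length. The 48 genes together took 0.884 to 1.07% of all counts in the WT cultures, against 0.285, 0.138 and 0.151% in Immature, M1 and M2 cells. Even over the Immature library, the highest of the sorted ones, the WT cultures stood 2.53-fold higher for S phase genes and 6.09-fold higher for mitosis genes. Over M1 the ratios were 6.41 and 21.1.

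Markers of other cells moved with the same comparison. The sum of 4 B cell markers was 0.621 to 0.859 CPM in WT cultures, against 20.3, 23.3 and 74.2 CPM in Immature, M1 and M2 cells. The myeloid genes Lyz2, S100a8 and S100a9 were at 0 in all 6 cultures and stood at 25.4 to 216 CPM in the sorted libraries, highest in M2. The whole myeloid list, which also holds Csf1r and Itgax, a gene that NK cells express, summed to 347 to 614 CPM in WT cultures against 1070, 1220 and 1450 CPM. Erythroid markers summed to 0 to 1.06 CPM against 6.78, 5.6 and 18 CPM. The T cell list summed to 40.2 to 150 CPM in WT cultures, against 375, 63 and 93.3 CPM. The NK cell list of 6 genes summed to 5110 to 5610 CPM in WT cultures, against 10200, 11300 and 10900 CPM, so genes of the labelled cell type were present in all of them. The part of the other cells in the differences below was not tested.

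Among the genes that license origins and form the helicase, 10 of 10 rose, with a median log2 fold of 1.16, the smallest of the 6 roles. Cdc6, the loading factor for the MCM ring, stood at 36.1, 31.5 and 47.4 CPM in cultured WT cells against 12.6, 2.02 and 3.55 CPM in Immature, M1 and M2 cells (log2 fold 2.51, SE 0.543, adjusted p = 0.00666, edgeR). Gins2, a subunit of the GINS complex that activates the helicase, stood at 26.8, 25.2 and 33.5 CPM in cultured WT cells against 11.4, 2.02 and 2.22 CPM in Immature, M1 and M2 cells (log2 fold 2.31, SE 0.568, adjusted p = 0.0113, edgeR). Its partner Gins1 stood at 17.6, 19.0 and 23.0 CPM in cultured WT cells against 7.02, 3.14 and 2.22 CPM in Immature, M1 and M2 cells (log2 fold 2.11, SE 0.358, adjusted p = 0.00126, edgeR). In the sorted cells these 3 genes rest on few counts, and M1 and M2 were the lowest libraries for each of them. The genes of the MCM subunits themselves had higher levels in the sorted cells and smaller log2 folds. Mcm3 stood at 309.8, 306 and 366 CPM in cultured WT cells against 158, 87.2 and 90.9 CPM in Immature, M1 and M2 cells (log2 fold 1.38, SE 0.216, adjusted p = 0.000913, edgeR). Mcm2 (chr6:88883474-88898780, GRCm38.p6) stood at 211, 216 and 268 CPM in cultured WT cells against 136, 86.0 and 74.2 CPM in Immature, M1 and M2 cells (log2 fold 1.07, SE 0.208, adjusted p = 0.00264, edgeR). Mcm4, Mcm5 and Mcm7 had log2 folds between 0.80 and 1.26. The smallest call of this role was that of Mcm6, which stood at 393, 389 and 460.1 CPM in cultured WT cells against 324, 205 and 188 CPM in Immature, M1 and M2 cells (log2 fold 0.63, SE 0.192, adjusted p = 0.021, edgeR). Every cultured library was above every sorted one for Mcm6, but its call was lost without any 1 of WT replicates 1, 2 and 3 or of M1 and M2, at adjusted p from 0.0503 to 0.0833 in edgeR. Cdt1, which loads the helicase with CDC6 and is destroyed once S phase begins, had 74.1, 89.2 and 82.2 CPM in cultured WT cells against 48.4, 47.95 and 41.8 CPM in Immature, M1 and M2 cells (log2 fold 0.66, SE 0.131, adjusted p = 0.00264, edgeR).

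Of the 6 genes of DNA synthesis, nucleotide supply and methylation maintenance, 5 rose, with a median log2 fold of 2.40. Tk1, the cytosolic thymidine kinase, stood at 104, 99.4 and 130.0 CPM in cultured WT cells against 18.4, 4.48 and 6.89 CPM in Immature, M1 and M2 cells (log2 fold 3.33, SE 0.434, adjusted p = 0.000773, edgeR). Rrm2, the regulated subunit of ribonucleotide reductase, stood at 263, 229 and 379 CPM in cultured WT cells against 60.1, 14.3 and 23.1 CPM in Immature, M1 and M2 cells (log2 fold 3.001, SE 0.516, adjusted p = 0.00324, edgeR). Both were lowest in M1 and highest in the WT cultures. Rrm1, the partner of Rrm2, stood higher in the sorted cells and had a log2 fold of 1.35. Uhrf1, which guides DNA methyltransferase to newly copied DNA, stood at 205, 182 and 220.2 CPM in cultured WT cells against 47.7, 14.8 and 16.9 CPM in Immature, M1 and M2 cells (log2 fold 2.78, SE 0.425, adjusted p = 0.00174, edgeR). Tyms, the thymidylate synthase, stood at 24.3, 31.3 and 36.8 CPM in cultured WT cells against 14.5, 2.69 and 3.55 CPM in Immature, M1 and M2 cells (log2 fold 2.01, SE 0.551, adjusted p = 0.0179, edgeR), and its call was lost with no filter on low counts or without WT replicate 3 or M2, at adjusted p from 0.0522 to 0.0642. Pcna (chr2:132249286-132253180, GRCm38.p6) was the exception of the role. It stood at 122, 173 and 146 CPM in cultured WT cells against 152, 107 and 138 CPM in Immature, M1 and M2 cells, and the libraries overlapped (log2 fold -0.016, SE 0.179, adjusted p = 0.946, edgeR; log2 fold 0.15 with library totals as scaling). Named copies of Pcna, Tyms, Ccnb1, Ccnb2 and Stmn1 are annotated elsewhere in the genome, and the sources used here do not say how reads with several matches were counted, so the levels of these 5 genes are uncertain to that extent.

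Of the 6 cyclins and transcription factors of the G1 to S passage, 5 rose, with a median log2 fold of 2.43. E2f8, an atypical E2F that represses E2F targets late in S phase, stood at 119, 109 and 119.8 CPM in cultured WT cells against 15.0, 4.48 and 6.22 CPM in Immature, M1 and M2 cells (log2 fold 3.60, SE 0.361, adjusted p = 0.000219, edgeR). Mybl2, which encodes B-MYB, a partner of the MuvB complex, stood at 23.4, 27.3 and 31.5 CPM in cultured WT cells against 4.12, 1.12 and 2.22 CPM in Immature, M1 and M2 cells (log2 fold 3.30, SE 0.353, adjusted p = 0.000153, edgeR). For both, every culture was above every sorted library, and M1 was the lowest. The E-type cyclin genes, whose products activate CDK2 at the start of S phase, followed. Ccne1 stood at 39.9, 42.1 and 57.5 CPM in cultured WT cells against 12.6, 4.93 and 4.67 CPM in Immature, M1 and M2 cells (log2 fold 2.50, SE 0.349, adjusted p = 0.000651, edgeR). Ccne2 stood at 21.0, 16.7 and 32.5 CPM in cultured WT cells against 7.75, 1.57 and 2.89 CPM in Immature, M1 and M2 cells (log2 fold 2.37, SE 0.495, adjusted p = 0.00475, edgeR). E2f1 (chr2:154559400-154569892, GRCm38.p6), an activator of S phase genes, stood at 58.8, 57.5 and 66.2 CPM in cultured WT cells against 19.6, 8.07 and 5.11 CPM in Immature, M1 and M2 cells (log2 fold 2.33, SE 0.397, adjusted p = 0.00205, edgeR). E2f2, its close relative, differed from the rest. It stood at 58.8, 40.4 and 56.5 CPM in cultured WT cells against 45.8, 30.3 and 40.2 CPM in Immature, M1 and M2 cells, again with overlap (log2 fold 0.25, SE 0.198, adjusted p = 0.3, edgeR).

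**Figure D2:**
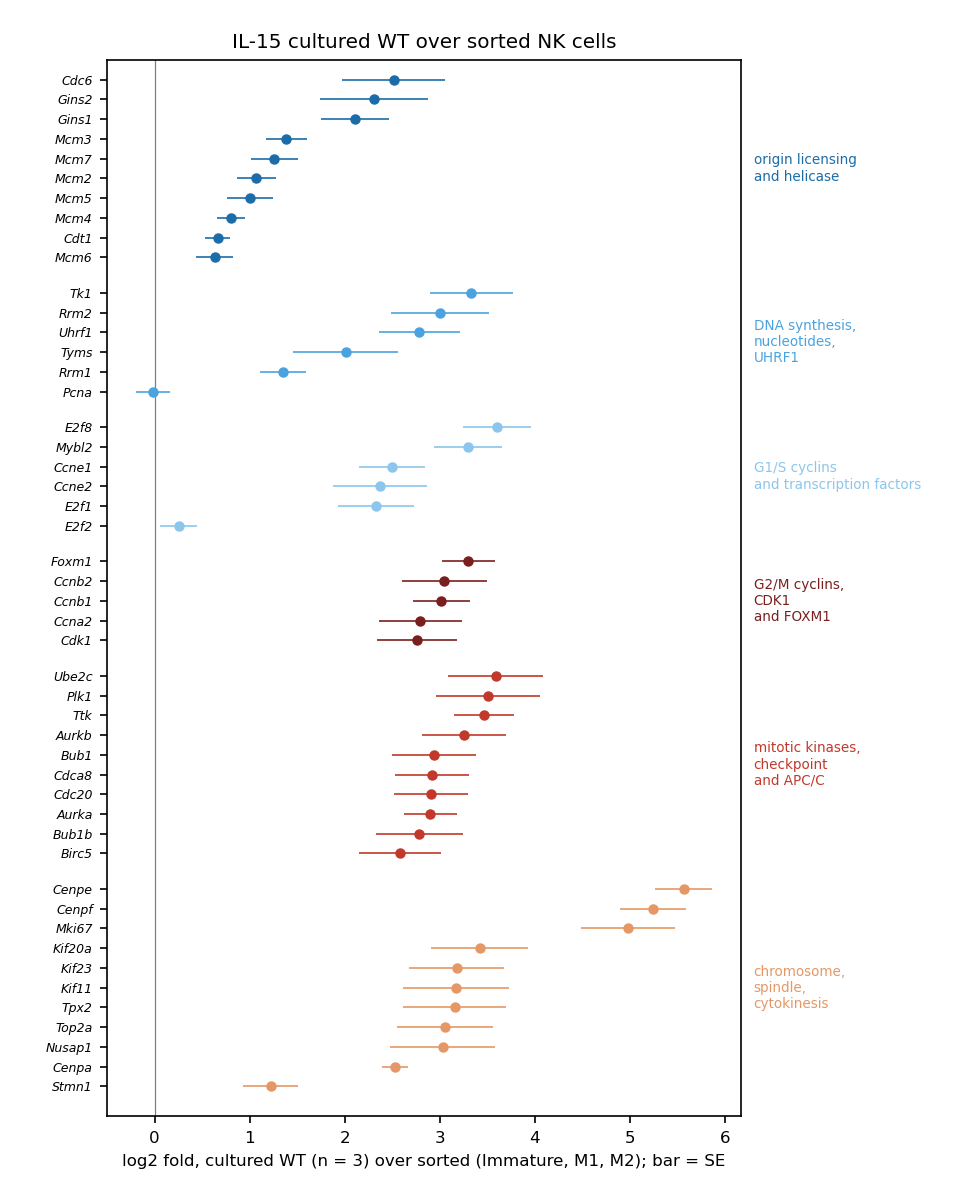
Log2 fold of IL-15 cultured WT cells over sorted cells for each of the 48 genes, ordered by fold within each of the 6 roles, with bars of 1 standard error from the edgeR model. The lowest mitosis gene, Stmn1, lies at 1.22, and Pcna, at -0.02, and E2f2, at 0.25, are the only genes that were not called.

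All 5 genes of G2/M entry rose, within a narrow range of log2 folds from 2.76 to 3.30. Foxm1 (chr6:128362994-128375886, GRCm38.p6), which encodes the forkhead factor of mitosis genes, stood at 139.6, 126 and 144 CPM in cultured WT cells against 18.7, 7.39 and 11.1 CPM in Immature, M1 and M2 cells (log2 fold 3.30, SE 0.275, adjusted p = 7.53e-05, edgeR). Ccnb1 (chr13:100778739-100786486), which encodes the B cyclin that activates CDK1, stood at 49.0, 37.8 and 41.2 CPM in cultured WT cells against 7.51, 2.91 and 3.78 CPM in Immature, M1 and M2 cells (log2 fold 3.01, SE 0.301, adjusted p = 0.000114, edgeR). For both genes M1 was the lowest library. Ccnb2, the gene of the other B cyclin, stood at 184, 158 and 165 CPM in cultured WT cells against 32.2, 7.62 and 15.3 CPM in Immature, M1 and M2 cells (log2 fold 3.05, SE 0.444, adjusted p = 0.00143, edgeR). Cdk1 (chr10:69335146-69352912), the kinase itself, stood at 158, 127 and 174 CPM in cultured WT cells against 34.2, 8.96 and 17.6 CPM in Immature, M1 and M2 cells (log2 fold 2.76, SE 0.418, adjusted p = 0.00161, edgeR). Ccna2, the A cyclin of S phase and G2, stood at 342, 282 and 326 CPM in cultured WT cells against 73.2, 21.3 and 28.9 CPM in Immature, M1 and M2 cells (log2 fold 2.79, SE 0.437, adjusted p = 0.002, edgeR). In all 5, each culture was above each sorted library, and Immature was the highest of the sorted ones.

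All 10 mitotic kinases, checkpoint genes and genes of the anaphase-promoting complex or its partners rose too, with log2 folds from 2.58 to 3.59 and a median of 2.92. Ube2c, the ubiquitin-conjugating enzyme of that complex, stood at 214, 179 and 175 CPM in cultured WT cells against 27.9, 6.72 and 8.22 CPM in Immature, M1 and M2 cells (log2 fold 3.59, SE 0.502, adjusted p = 0.00132, edgeR). Plk1, the Polo kinase of mitotic entry and spindle assembly, stood at 157, 159.6 and 181 CPM in cultured WT cells against 26.6, 4.93 and 7.999 CPM in Immature, M1 and M2 cells (log2 fold 3.51, SE 0.542, adjusted p = 0.00208, edgeR). For both, Immature was the highest of the sorted libraries and still below every culture. Ttk, which encodes the checkpoint kinase MPS1, stood at 61.6, 47.8 and 57.5 CPM in cultured WT cells against 7.02, 2.24 and 4.22 CPM in Immature, M1 and M2 cells (log2 fold 3.47, SE 0.314, adjusted p = 8.26e-05, edgeR). Aurkb, the kinase of the chromosomal passenger complex, stood at 151, 134 and 143 CPM in cultured WT cells against 24.2, 5.60 and 10.4 CPM in Immature, M1 and M2 cells (log2 fold 3.26, SE 0.441, adjusted p = 0.001, edgeR). Its partners in that complex, Birc5 (survivin) and Cdca8 (borealin), had log2 folds of 2.58 and 2.91. The checkpoint genes Bub1 and Bub1b had 2.94 and 2.78, the centrosomal kinase Aurka 2.90, and Cdc20, the activator of the anaphase-promoting complex, 2.91.

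The genes of chromosomes, kinetochores, spindle and cytokinesis held the largest differences, with 11 of 11 higher and a median log2 fold of 3.17. Cenpe, a kinesin that brings chromosomes to the spindle equator, stood at 258, 202 and 229 CPM in cultured WT cells against 7.27, 2.91 and 2.89 CPM in Immature, M1 and M2 cells (log2 fold 5.57, SE 0.301, adjusted p = 1.75e-05, edgeR). Cenpf, a large kinetochore protein, stood at 233, 189 and 218 CPM in cultured WT cells against 8.96, 2.69 and 3.55 CPM in Immature, M1 and M2 cells (log2 fold 5.24, SE 0.350, adjusted p = 4.20e-05, edgeR). Both were among the lowest of the 48 genes in the sorted cells and among the higher ones in culture. Mki67 (chr7:135689784-135716450, GRCm38.p6), which encodes the Ki-67 protein of the chromosome surface and is used as a marker of proliferation, stood at 1396, 1220.4 and 1347 CPM in cultured WT cells against 68.5, 27.3 and 17.6 CPM in Immature, M1 and M2 cells (log2 fold 4.98, SE 0.497, adjusted p = 0.000307, edgeR), a 31.5-fold difference. Kif20a, a kinesin of cytokinesis, stood at 123, 114 and 151 CPM in cultured WT cells against 21.1, 3.81 and 7.78 CPM in Immature, M1 and M2 cells (log2 fold 3.42, SE 0.512, adjusted p = 0.00175, edgeR). Top2a (chr11:98992947-99024199), the topoisomerase that untangles copied chromosomes, stood at 1160.0, 941 and 1194 CPM in cultured WT cells against 222, 60.1 and 74.0 CPM in Immature, M1 and M2 cells (log2 fold 3.06, SE 0.506, adjusted p = 0.00263, edgeR). The spindle genes Kif11, Kif23, Tpx2 and Nusap1 had log2 folds from 3.03 to 3.18, and Cenpa, the histone variant of centromeres, had 2.53. Stmn1, which encodes a protein that takes up free tubulin, had the smallest difference among the mitosis genes, at 96.2, 83.3 and 133 CPM in cultured WT cells against 56.4, 25.1 and 38.0 CPM in Immature, M1 and M2 cells (log2 fold 1.22, SE 0.286, adjusted p = 0.00804, edgeR).

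Per gene length, in CPM divided by the deposited length in kilobases, the order of the genes changed between culture and sorted cells. Top2a had the highest level in WT cultures at 211 CPM per kilobase, followed by Ube2c at 203 and Mcm6 at 143. In the sorted cells the highest were Pcna at 105, Mcm6 at 82.4, Mcm4 at 48.3 and Mcm5 at 47.0. Mki67 stood at 131 CPM per kilobase in WT cultures against 3.75 in sorted cells. Cenpf and Cenpe were at 0.455 and 0.558 in sorted cells. The genes highest per length in sorted cells were thus of the clamp and the helicase. In culture Top2a led, which is not a mitosis gene in the strict sense, and Mcm6 of the helicase was still among the highest.

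Over the 3 sorted populations most of the 48 genes were highest in Immature cells. With 1 library per population there is no replicate and no test, and genes were counted when 2 libraries differed 2-fold or more with at least 20 counts in the higher one. Of 47 genes with enough counts, 36 were 2-fold or more lower in M1 than in Immature cells and 0 higher, where 4.46% of 10127 genes were that much lower and 1.81% that much higher, 6.27% in all. The 36 comprised 25 of 26 mitosis genes, with a median 3.59-fold lower level in M1, and 11 of 21 S phase genes, with a median 2.24-fold lower level. From Immature to M2, 29 of 47 genes were 2-fold or more lower in M2 and 0 higher, where 6.88% of 10344 genes were that much lower and 5.93% that much higher, 12.8% in all. Between M1 and M2, 4 of 38 genes were 2-fold or more higher in M2, namely Ccnb2, Birc5, Kif11 and Kif20a, and 0 lower, where 4.04% of 10165 genes were that much higher and 2.02% that much lower, 6.06% in all. The 22 mitosis genes with enough counts had a median ratio of M2 over M1 of 1.52, with 21 above 1 and Mki67 at 0.642, and the 16 S phase genes had a median of 1.04. Intervals below are exact 95% intervals of counting error only.

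The libraries also differed in markers of other cells, whose part in these differences was not tested. The T cell list of 5 genes summed to 375, 63 and 93.3 CPM in Immature, M1 and M2 cells, with Cd3d at 222, 28.7 and 30.4 CPM and Cd4 at 4.36, 4.26 and 9.78 CPM. The B cell, myeloid and erythroid lists were highest in M2, as given above.

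**Figure D3:**
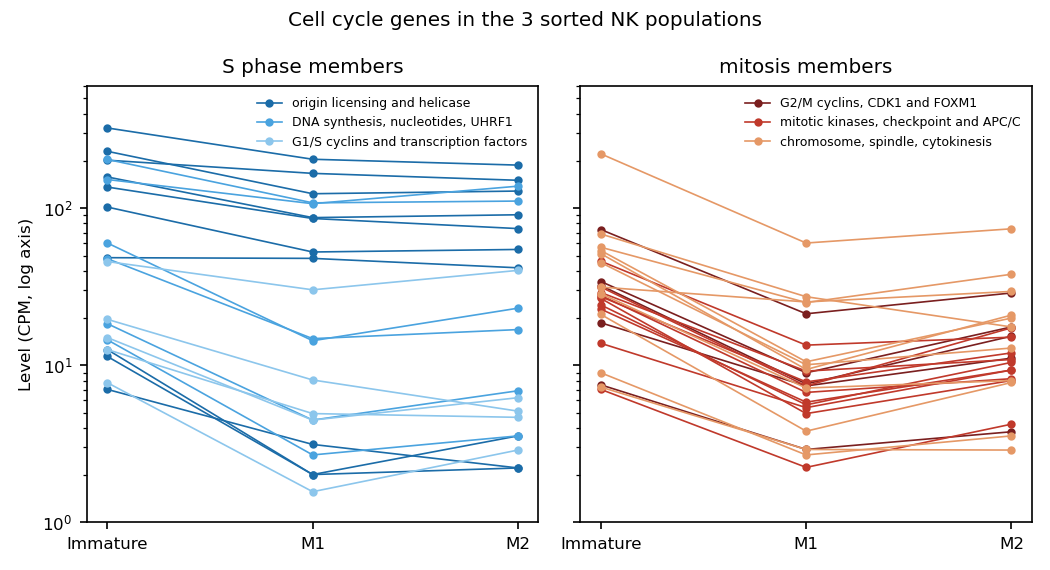
Level in CPM, on a log axis, in Immature, M1 and M2 cells for the 47 genes with at least 20 counts in the higher library, with S phase genes on the left, mitosis genes on the right, 1 line per gene and colours by role. Each of the 47 genes is highest in Immature cells, the lines of most mitosis genes run steeply down to M1, and those of the MCM genes stay flatter.

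In the helicase role Cdc6 and the GINS genes Gins1 and Gins2 differed more between populations than the MCM genes, and Cdt1 differed less. Gins2 stood at 11.4, 2.02 and 2.22 CPM in Immature, M1 and M2 cells, lower in M2 than in Immature by 5.12-fold (95% interval 2.56 to 11.4). Cdc6 stood at 12.6, 2.02 and 3.55 CPM, with M2 lower by 3.54-fold (95% interval 1.99 to 6.65). Both were lowest in M1. Among the MCM genes, Mcm2 stood at 136, 86.0 and 74.2 CPM. Mcm4 stood at 202, 167 and 151 CPM and stayed within 2-fold. Cdt1 was nearly level over the populations at 48.4, 47.95 and 41.8 CPM.

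Among the synthesis genes, Tyms stood at 14.5, 2.69 and 3.55 CPM in Immature, M1 and M2 cells, lower in M2 than in Immature by 4.09-fold (95% interval 2.33 to 7.60). Uhrf1 stood at 47.7, 14.8 and 16.9 CPM, with M2 lower by 2.83-fold (95% interval 2.16 to 3.73). Rrm2 had 60.1, 14.3 and 23.1 CPM. All 3 were lowest in M1. Pcna, in contrast, was at 152, 107 and 138 CPM, with M1 the lowest of the 3.

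In the G1 to S role, E2f1 stood at 19.6, 8.07 and 5.11 CPM in Immature, M1 and M2 cells, lower in M2 than in Immature by 3.84-fold (95% interval 2.39 to 6.39), and Ccne1 at 12.6, 4.93 and 4.67 CPM, with M2 lower by 2.70-fold (95% interval 1.60 to 4.72). E2f2 stood at 45.8, 30.3 and 40.2 CPM and stayed within 2-fold. Mybl2 had under 20 counts in each sorted library and is not counted.

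The mitosis genes followed a common order, with Immature highest, M1 lowest and M2 between for most. Ccna2 stood at 73.2, 21.3 and 28.9 CPM in Immature, M1 and M2 cells, lower in M2 than in Immature by 2.53-fold (95% interval 2.06 to 3.13). Ccnb2 stood at 32.2, 7.62 and 15.3 CPM, lower in M1 than in Immature by 4.23-fold (95% interval 2.88 to 6.36) and higher in M2 than in M1 by 2.01-fold (95% interval 1.32 to 3.13). Cdk1, with 34.2, 8.96 and 17.6 CPM, followed the same order. Ube2c stood at 27.9, 6.72 and 8.22 CPM, with M2 lower than Immature by 3.39-fold (95% interval 2.32 to 5.05), and Plk1 at 26.6, 4.93 and 7.999 CPM, with M2 lower by 3.33-fold (95% interval 2.27 to 4.998). These 2 genes of protein destruction and spindle assembly were low in both M1 and M2. Kif11, the motor that separates the spindle poles, stood at 51.4, 9.41 and 20.9 CPM, lower in M1 than in Immature by 5.46-fold (95% interval 3.90 to 7.79) and higher in M2 than in M1 by 2.22-fold (95% interval 1.53 to 3.27). Kif23, a kinesin of the central spindle, stood at 28.6, 7.17 and 7.999 CPM, with M2 lower than Immature by 3.57-fold (95% interval 2.44 to 5.34).

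Mki67 departed from that order, and in Cenpe M1 and M2 were nearly level. Mki67 stood at 68.5, 27.3 and 17.6 CPM, so that M2 rather than M1 was the lowest, by 3.90-fold (95% interval 3.03 to 5.08) against Immature and 1.56-fold (95% interval 1.16 to 2.09) against M1. Cenpa kept the order with smaller differences, at 31.5, 25.3 and 29.6 CPM, and was the 1 mitosis gene that M1 and Immature cells held within 2-fold. Top2a kept the order of most mitosis genes at 222, 60.1 and 74.0 CPM.

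Between the genotypes, 0 of the 48 genes passed the test in Id2-null relative to WT cultures (edgeR quasi-likelihood test with Benjamini-Hochberg adjustment, lowest adjusted p = 0.101), where 377 of 11022 genes did (3.42%, with 1.91% higher and 1.52% lower). At an unadjusted p under 0.05 there were 11 genes, 1 higher and 10 lower, of which 7 were S phase and 4 mitosis genes, and 14.6% of all genes reached that level (7.33% lower). DESeq2 called 1 of the 48, E2f2, and limma voom called 0. The log2 folds were small and mostly on one side. They were negative in 26 of 26 mitosis genes and in 19 of 22 S phase genes, with medians of -0.33 and -0.29 beside 0.01 over all genes, and ran from -0.67 for Tk1 to 0.77 for E2f2. Genes that share a library move together, so these counts are a description. In 13 genes the libraries of the genotypes did not overlap, 12 of them lower and 1 higher in Id2-null cultures. The higher one was E2f2. The lower ones were Mcm4, Cdt1, Rrm2, Tk1 and E2f1 among the S phase genes and Ccna2, Foxm1, Ttk, Mki67, Cenpe, Tpx2 and Stmn1 among the mitosis genes. Over all genes tested 10.3% did not overlap and were lower and 9.46% did not overlap and were higher, 19.8% in all. Markers of B cells and 3 myeloid genes stood low in both genotypes, with the B cell list at 0.446 to 1.79 CPM in Id2-null and 0.621 to 0.859 CPM in WT cultures and Lyz2, S100a8 and S100a9 at 0. The T cell list summed to 112, 200 and 112 CPM in Id2-null against 46.4, 150 and 40.2 CPM in WT cultures, but its genes did not go one way. Cd3d stood at 95.6, 167 and 95.9 CPM in Id2-null against 19.8, 51.6 and 14.7 CPM in WT cultures. Cd3e stood at 9.61, 25.1 and 11.2 CPM against 17.4, 83.7 and 19.5 CPM (log2 fold -1.40), and Trac had a log2 fold of -0.72. Cd8a stood at 0.669 to 1.56 CPM in the cultures and Cd4 at 0. The part of T cells in the differences was not tested. The standard errors of the log2 folds lay between 0.131 and 0.311.

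**Figure D4:**
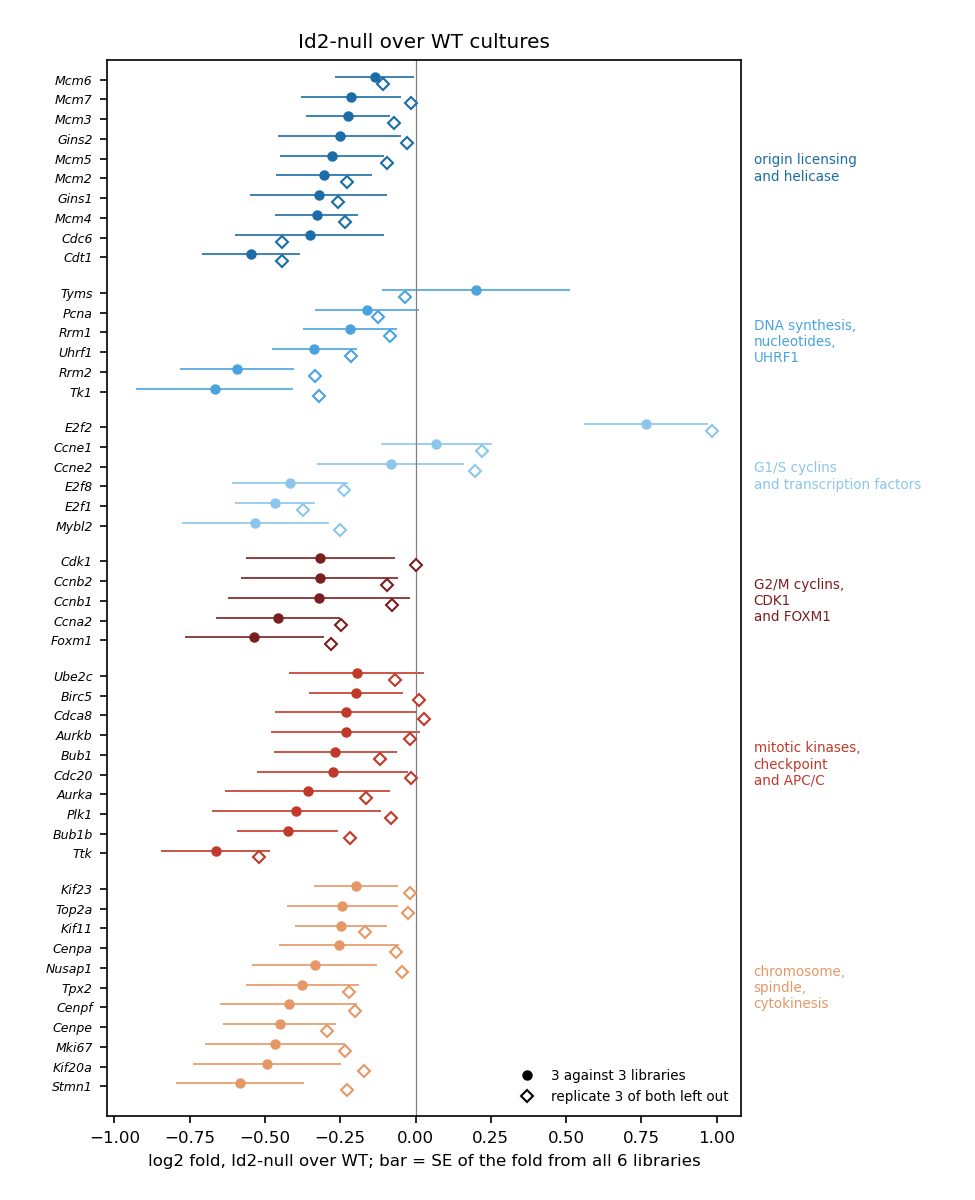
Log2 fold of Id2-null over WT cultures for each of the 48 genes with all 6 libraries and without replicate 3 of both genotypes (filled circles and open diamonds), with bars of 1 standard error of the edgeR model for the circles alone. With all libraries 45 of 48 values are negative, and without replicate 3 the medians move to -0.17 for S phase and -0.11 for mitosis genes.

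For mitosis genes the median log2 fold depended most on Id2-null replicate 3. It was -0.12 without that library, against -0.43 and -0.53 without Id2-null replicates 1 and 2. Without 1 WT library it was -0.40 to -0.29. The S phase median was not particular to replicate 3. It was -0.17, -0.41 and -0.24 without Id2-null replicates 1, 2 and 3, and -0.34 to -0.19 without 1 WT library. Without replicate 3 of both genotypes the median log2 fold was -0.17 for S phase genes and -0.11 for mitosis genes, E2f2 was called higher (log2 fold 0.99, adjusted p = 0.000104, edgeR), and 1065 of 11070 genes were called (9.62%, with 5.16% higher and 4.46% lower). Without Id2-null replicate 3 alone, E2f2 was again the only call among the 48, and 662 of 11227 genes were called (5.9%, with 3.45% higher and 2.45% lower). With the replicate number as a block, Cdt1 was the only call (log2 fold -0.56, adjusted p = 0.0265, edgeR), among 835 genes (7.58%, with 4.1% higher and 3.47% lower). None of the 26 mitosis genes was called under any of the alternatives tried, with the lowest adjusted p under the block at 0.0554, that of Ttk.

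In the helicase role, Cdt1 stood at 52.9, 66.3 and 48.2 CPM in Id2-null cultures against 74.1, 89.2 and 82.2 CPM in WT cultures (log2 fold -0.55, SE 0.163, adjusted p = 0.139, edgeR), and the genotypes did not overlap. Mcm6, the highest of the role, had 316, 405 and 408 CPM in Id2-null against 393, 389 and 460.1 CPM in WT cultures. Mcm5 had 247, 354 and 291 CPM in Id2-null against 318, 328 and 439.6 CPM in WT cultures, and both overlapped. Mcm2 stood at 148, 215 and 199.7 CPM in Id2-null cultures against 211, 216 and 268 CPM in WT cultures (log2 fold -0.30, SE 0.158, adjusted p = 0.444, edgeR). Id2-null replicate 1 was the lowest of the Id2-null libraries for 7 of these 10 genes, and WT replicate 3 the highest of the WT libraries for 9.

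Among the synthesis genes, Rrm2 stood at 167, 221 and 186 CPM in Id2-null cultures against 263, 229 and 379 CPM in WT cultures (log2 fold -0.59, SE 0.190, adjusted p = 0.172, edgeR), and Tk1 at 68.6, 92.9 and 46.0 CPM in Id2-null cultures against 104, 99.4 and 130.0 CPM in WT cultures (log2 fold -0.67, SE 0.261, adjusted p = 0.297, edgeR), both without overlap. Rrm1, the highest of the role, had 295, 399.9 and 339.5 CPM in Id2-null against 405, 338 and 465 CPM in WT cultures (adjusted p = 0.616, edgeR). Pcna overlapped, with 115, 154 and 125 CPM in Id2-null against 122, 173 and 146 CPM in WT cultures. Tyms had 20.6, 33.3 and 53.1 CPM in Id2-null against 24.3, 31.3 and 36.8 CPM in WT cultures, with the single high value in Id2-null replicate 3, and its log2 fold of 0.20 turned to -0.16 without that library.

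Among the regulators of the G1 to S passage, E2f2 stood at 95.6, 99.2 and 67.8 CPM in Id2-null cultures against 58.8, 40.4 and 56.5 CPM in WT cultures (log2 fold 0.77, SE 0.206, adjusted p = 0.101, edgeR). It was the only one of the 48 genes higher in every Id2-null than in every WT library, and Id2-null replicate 3 was the nearest to WT. E2f1, its relative among the activators, stood at 40.0, 49.0 and 42.6 CPM in Id2-null cultures against 58.8, 57.5 and 66.2 CPM in WT cultures (log2 fold -0.47, SE 0.133, adjusted p = 0.12, edgeR), lower in each Id2-null than in each WT library. E2f8 had 81.3, 110.2 and 66.5 CPM in Id2-null against 119, 109 and 119.8 CPM in WT cultures, with Id2-null replicate 2 inside the WT range, and Ccne1 had 38.6, 56.2 and 51.1 CPM in Id2-null against 39.9, 42.1 and 57.5 CPM in WT cultures. The activators E2f1 and E2f2 thus lay on opposite sides of WT in all 3 Id2-null libraries, though neither passed the test. Of all genes tested, 10.3% were lower and 9.46% higher without overlap.

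Among the genes of G2/M entry, Ccna2 stood at 248, 274 and 164 CPM in Id2-null cultures against 342, 282 and 326 CPM in WT cultures (log2 fold -0.46, SE 0.207, adjusted p = 0.363, edgeR) and Foxm1 at 96.7, 119.7 and 63.4 CPM in Id2-null cultures against 139.6, 126 and 144 CPM in WT cultures (log2 fold -0.54, SE 0.232, adjusted p = 0.343, edgeR), and both lacked overlap between genotypes. Ccnb2, Ccnb1 and Cdk1 overlapped. Ccnb2 had 153, 165 and 84.6 CPM in Id2-null against 184, 158 and 165 CPM in WT cultures. Cdk1 had 129, 154 and 81.7 CPM in Id2-null against 158, 127 and 174 CPM in WT cultures. Ccnb1 had 36.4, 45.2 and 19.9 CPM in Id2-null against 49.0, 37.8 and 41.2 CPM in WT cultures. In each of these 5 genes the lowest of all 6 cultures was Id2-null replicate 3.

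Of the kinases and checkpoint genes, Ttk stood at 34.2, 41.5 and 29.0 CPM in Id2-null cultures against 61.6, 47.8 and 57.5 CPM in WT cultures (log2 fold -0.66, SE 0.180, adjusted p = 0.103, edgeR) without overlap. Ube2c had 159, 213 and 120.0 CPM in Id2-null against 214, 179 and 175 CPM in WT cultures, and Bub1b had 144, 163 and 115 CPM in Id2-null against 197, 163 and 211 CPM in WT cultures. Both overlapped between genotypes. Among the genes of chromosomes and spindle, Mki67 stood at 1149.5, 1056 and 633 CPM in Id2-null cultures against 1396, 1220.4 and 1347 CPM in WT cultures (log2 fold -0.47, SE 0.233, adjusted p = 0.425, edgeR). Top2a had 996, 1051 and 715 CPM in Id2-null against 1160.0, 941 and 1194 CPM in WT cultures, with overlap. Mki67 did not overlap, with Id2-null replicate 3 far below the others. Cenpe stood at 179.8, 192 and 128 CPM in Id2-null cultures against 258, 202 and 229 CPM in WT cultures (log2 fold -0.45, SE 0.187, adjusted p = 0.315, edgeR). Stmn1 had 71.0, 81.0 and 54.4 CPM in Id2-null against 96.2, 83.3 and 133 CPM in WT cultures. Tpx2 had 180.3, 203 and 129.8 CPM in Id2-null against 246, 204 and 221 CPM in WT cultures. These 3 genes did not overlap between genotypes either. None of the genes of both roles passed the test, and in each one named Id2-null replicate 3 was again the lowest.

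Replicate 3 of the Id2-null cultures parted mitosis from S phase genes. It was the lowest of the 3 Id2-null libraries in 26 of 26 mitosis genes but in 7 of 22 S phase genes, and in 32.4% of all genes tested. Its level over the mean of replicates 1 and 2 had a median of 0.636 for mitosis genes, 0.958 for S phase genes and 1.06 for all genes. For the other 15 S phase genes the lowest Id2-null library was replicate 1. Replicate 3 of the WT cultures also had mitosis genes below S phase genes relative to replicates 1 and 2, but by less. It was the highest WT library in 19 of 22 S phase genes and 12 of 26 mitosis genes, and in 45.6% of all genes, with medians over replicates 1 and 2 of 1.25, 1.05 and 1.05. The geometric mean of mitosis genes was 143, 162 and 97.5 CPM in the Id2-null cultures against 184, 155 and 182 CPM in the WT cultures, or 134 ± 33.1 CPM and 174 ± 16.2 CPM (SD, n = 3 each). That of S phase genes was 73.2, 99.4 and 83.0 CPM against 94.7, 93.1 and 118 CPM, or 85.2 ± 13.2 CPM and 102 ± 13.9 CPM. The ratio of mitosis to S phase genes was 1.95, 1.63 and 1.18 in Id2-null cultures against 1.94, 1.66 and 1.54 in WT cultures. Replicates 1 and 2 thus had nearly the same ratio in both genotypes, and replicate 3 had the lowest ratio in each. With 1 library in question, no test of this split was made.

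**Figure D5:**
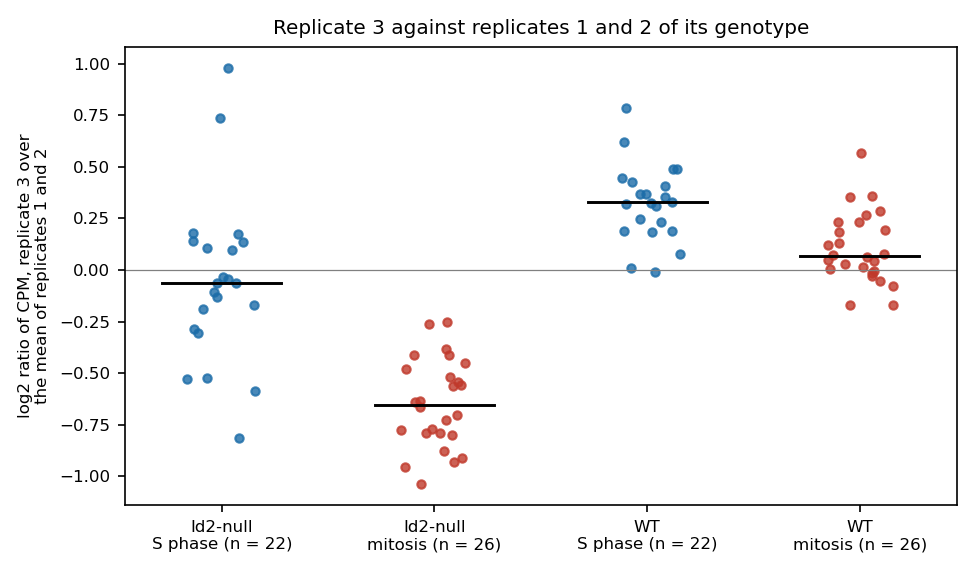
Log2 ratio of the level in replicate 3 over the mean of replicates 1 and 2 for each of the 48 genes, for Id2-null and for WT cultures, with S phase and mitosis genes apart and a black line at the median of each set. As plain ratios, in Id2-null cultures the mitosis genes have a median of 0.636 and the S phase genes 0.958, whereas in WT cultures the medians are 1.05 and 1.25.

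Other genes of the same machinery were counted from 4 lists that do not include the 48. These lists too were chosen with earlier results of these data known. In cultured WT against sorted cells, 16 of 20 further replication and 18 of 20 further mitosis genes rose, and 0 fell in either list. Their median log2 folds were 1.49 and 2.86. Over all genes tested 27.4% rose and 29.4% fell. Clspn, which relays the replication checkpoint, stood at 111, 109.9 and 152 CPM in cultured WT cells against 17.0, 5.38 and 3.999 CPM in Immature, M1 and M2 cells (log2 fold 3.67, SE 0.469, adjusted p = 0.000792, edgeR). Pold1, a subunit of DNA polymerase delta, stood at 159.9, 208 and 218 CPM in cultured WT cells against 84.1, 65.0 and 62.9 CPM in Immature, M1 and M2 cells (log2 fold 1.30, SE 0.159, adjusted p = 0.000269, edgeR). Aspm, a spindle pole gene, stood at 170.0, 129 and 163 CPM in cultured WT cells against 10.4, 2.46 and 4.22 CPM in Immature, M1 and M2 cells (log2 fold 4.60, SE 0.406, adjusted p = 0.000149, edgeR), and Mad2l1, of the spindle checkpoint, at 141, 113 and 153 CPM in cultured WT cells against 41.9, 24.6 and 28.2 CPM in Immature, M1 and M2 cells (log2 fold 1.94, SE 0.200, adjusted p = 0.000134, edgeR). The genes of these lists that were not called were Gins4, Rpa2, Rfc4 and Ung for replication and Pttg1 and Cks2 for mitosis. The low level of mitosis genes in Id2-null replicate 3 was seen here too. It was the lowest of the Id2-null libraries in 18 of 20 further mitosis genes and in 2 of 20 further replication genes. Over all genes tested the share was 32.4%.

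Of 7 D cyclins and G1 kinases, 4 rose in cultured WT cells and 1 fell, where 27.4% of all genes tested rose and 29.4% fell. Cdk6, a partner of the D cyclins, stood at 44.4, 49.3 and 38.5 CPM in cultured WT cells against 13.3, 6.95 and 4.22 CPM in Immature, M1 and M2 cells (log2 fold 2.29, SE 0.339, adjusted p = 0.000825, edgeR), and Cdk2, the partner of the E cyclins, at 84.4, 58.4 and 71.4 CPM in cultured WT cells against 22.0, 10.5 and 19.8 CPM in Immature, M1 and M2 cells (log2 fold 1.86, SE 0.269, adjusted p = 0.000665, edgeR). Ccnd3, a D cyclin gene of lymphocytes, fell to 308, 319 and 224 CPM in cultured WT cells against 343, 469 and 593 CPM in Immature, M1 and M2 cells (log2 fold -0.89, SE 0.247, adjusted p = 0.015, edgeR). Ccnd2, the most abundant D cyclin, had 747, 615 and 923 CPM against 817, 883 and 884 CPM (log2 fold -0.35, adjusted p = 0.0888).

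Of 15 CDK inhibitors, pocket proteins, repressor E2Fs and genes that restrain proliferation that were tested, 7 rose and 4 fell in cultured WT cells, beside the same 27.4% and 29.4% of all genes, so the share that fell was near that of all genes. Cdkn1a, which encodes the inhibitor p21, stood at 167, 178 and 174 CPM in cultured WT cells against 2.91, 9.19 and 12.0 CPM in Immature, M1 and M2 cells (log2 fold 4.24, SE 0.396, adjusted p = 0.000192, edgeR). Cdkn2a, which encodes p16 and p19ARF, held 369 counts over the 3 WT cultures against 1 count over the 3 sorted libraries, a ratio of 340 with an interval of 60.6 to 13500. Cdkn2b, which encodes p15, held 210 counts against 0, at least 20.3-fold higher against the limit of 3 counts in a library. E2f7, the partner of E2F8, stood at 46.2, 39.5 and 56.9 CPM in cultured WT cells against 3.15, 1.12 and 1.11 CPM in Immature, M1 and M2 cells (log2 fold 4.56, SE 0.331, adjusted p = 3.39e-05, edgeR). Btg1, an anti-proliferative gene of resting lymphocytes, fell to 262, 221 and 389 CPM in cultured WT cells against 1175, 1143 and 1198 CPM in Immature, M1 and M2 cells (log2 fold -2.19, SE 0.200, adjusted p = 7.83e-05, edgeR).

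In the genotype comparison 1 gene of the 4 lists was called, where 3.42% of all genes were. E2f7 fell to 28.1, 26.6 and 29.9 CPM in Id2-null cultures against 46.2, 39.5 and 56.9 CPM in WT cultures (log2 fold -0.75, SE 0.154, adjusted p = 0.0371, edgeR), without overlap. The call was lost with library totals as scaling (adjusted p = 0.0524), with limma voom (adjusted p = 0.0543) and without any 1 of Id2-null replicates 1 and 2 or WT replicates 1, 2 and 3 (adjusted p from 0.0558 to 0.145). The repressor E2f7 and the activator E2f1 were thus lower, and the activator E2f2 higher, in every Id2-null than in every WT library, with E2f7 alone past the test. The repressor E2f8 overlapped between genotypes, and 19.8% of all genes tested did not overlap in one direction or the other. With the replicate block Pdcd4, a gene that restrains translation, was called higher too, at 332, 298 and 479.9 CPM in Id2-null against 223, 175 and 348 CPM in WT cultures (adjusted p = 0.0119, edgeR). Of the most abundant D cyclin genes, Ccnd2 overlapped, with 710.1, 584 and 1190.4 CPM in Id2-null against 747, 615 and 923 CPM in WT cultures, and Ccnd3 did not, with 209, 221 and 219 CPM in Id2-null against 308, 319 and 224 CPM in WT cultures, and neither was called with all libraries. Without replicate 3 of both genotypes Ccnd3 was called lower (log2 fold -0.54, SE 0.137, adjusted p = 0.00842, edgeR). For Ccnd3, WT replicate 3 was the WT library nearest to the Id2-null ones. The further replication and mitosis genes had median log2 folds of -0.22 and -0.35 with 0 called in either list with all libraries. Without replicate 3 of both genotypes 2 further mitosis genes were called, Pttg1 higher (log2 fold 0.74, adjusted p = 0.00178, edgeR) and Cks2 lower (log2 fold -1.09, adjusted p = 0.0291, edgeR), and 0 replication genes. Pttg1, which encodes securin, the protein that holds back separase, had 69.9, 66.8 and 46.2 CPM in Id2-null against 38.9, 43.3 and 46.8 CPM in WT cultures, and it was called higher without Id2-null replicate 3 alone as well (log2 fold 0.70, adjusted p = 0.0104, edgeR). Cks2, which encodes a small partner of CDK1, had 3.798, 6.27 and 6.02 CPM in Id2-null against 8.80, 12.9 and 3.10 CPM in WT cultures, with WT replicate 3 the lowest of all 6 cultures. Of the inhibitors and other restraining genes, 3 were called without replicate 3 of both genotypes, namely E2f7 lower (adjusted p = 0.0171, edgeR), Pdcd4 higher (adjusted p = 0.00164, edgeR) and Cdkn1a lower (log2 fold -0.46, adjusted p = 0.0319, edgeR), the last with 117, 131 and 218 CPM in Id2-null against 167, 178 and 174 CPM in WT cultures. As given above, 9.62% of all genes were called without replicate 3 of both genotypes.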

How the data were processed

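RNA sequencing libraries of mouse splenic NK cells were 3 Id2-null and 3 WT cultures and 1 each of sorted Immature, M1 and M2 cells. Each deposited file gives raw counts and a length for every Entrez gene, per the file headers. Subread, featureCounts and limma are named with GRCm38 (mm10), per the submitters' processing notes, without versions, strand setting or filters.

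Symbols and positions were looked up in RefSeq (GRCm38.p6), which matched all 48 genes, the 63 further cell cycle genes and the markers. Counts were tested in R 4.3.3 with edgeR 4.0.16 (filterByExpr with a minimum count of 10, TMM scaling, quasi-likelihood with the robust option, Benjamini-Hochberg adjustment over all genes tested, called under 0.05). Id2-null was tested against WT, and cultured WT against the sorted libraries as 1 group. Sorted libraries were compared without a test by folds of 2 or more, with exact 95% intervals, which like the limit of 3 counts cover counting error only. The procedure was tested on simulated data. DESeq2 1.42.0, limma voom 3.58.1, other scalings, no filter, left-out libraries and a replicate block were alternatives, and leaving out the robust option was added after seeing the data.

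Libraries with the same replicate number deviated together from their genotype means (r = 0.36, 0.245 and 0.421 over 11022 genes for numbers 1, 2 and 3). Id2-null replicate 1 with WT replicate 2 had r = 0.192, and Id2-null replicate 2 with WT replicate 1 had 0.13. Replicate 3 with any other number had r from -0.404 to -0.265. Deviations from a mean of 3 libraries sum to 0 in each gene. These values must therefore be negative on balance, given the positive r of number 3, and are no separate evidence. The counts thus set replicate 3 apart more clearly than they pair replicates 1 and 2. The numbers were read as pairs in the replicate block alone, and the main test was unpaired. That reading comes from the counts and not from the labels.

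The 48 genes and all lists were chosen with earlier results of these data known. Genes with full values were taken from 8 genes named whatever their result, up to 4 called genes per role by size of fold, or the 2 most abundant where none was called, in each sorted role the 2 with the largest log2 ratio, in size, of M2 over Immature, and in each further list up to 4 called genes by adjusted p. Others were named after their values were seen. A total of 11 of the 48 genes overlap another counted gene, and their reads cannot be told apart if counting did not use strand.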

Additional observations from a re-analysis of the deposited data

How the results depend on the processing

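All 26 mitosis genes rose in cultured WT over sorted cells under every alternative run, and 18 to 20 S phase genes did. The calls among the 48 genes that were lost there were those of Mcm6 and Tyms. Over all genes the calls in that comparison numbered 5374 to 6865 over the alternatives, against 6320. Of these, 2621 to 3726 were higher and 2604 to 3684 lower. In Id2-null over WT, 0 of the 26 mitosis genes were called under every alternative. The S phase calls numbered 1 with DESeq2, 1 with the replicate block and 1 with replicate 3 of both genotypes left out, and 0 to 1 with 1 library left out. Over all genes the calls numbered 580 with DESeq2, 835 with the replicate block and 1065 with replicate 3 of both left out, against 377, and 121 to 662 with 1 library left out. In the further lists, replicate 3 of both left out gave calls for 2 mitosis genes, 1 D cyclin gene and 3 restraining genes, against 0, 0 and 1. The block changed no other call among the 48 genes than that of Cdt1. With a fold of 1.5, 17 of the 38 genes with at least 20 counts in the higher library differed between M2 and M1. Of these, 15 were higher and 2 lower in M2, and the share of all genes at that fold was not computed.

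Some genes changed sign without being called on either side, and the cause was not tested. In Id2-null over WT with replicate 3 of both left out, the log2 folds were -0.0357 for Tyms, 0.198 for Ccne2, 0.000255 for Cdk1, 0.011 for Birc5 and 0.029 for Cdca8. With 1 library left out they ran from -0.16 to 0.47 for Tyms, -0.065 to 0.22 for Ccne1, -0.26 to 0.20 for Ccne2, -0.52 to 0.0019 for Aurkb, -0.45 to 0.0059 for Cdca8 and -0.44 to 0.0079 for Ube2c. In cultured WT over sorted cells Pcna had 0.15 with library totals as scaling and -0.16 to 0.13 with 1 library left out. Among single genes of the 48 over the alternatives, 703 values kept their direction and side of the threshold in Id2-null over WT, 13 changed sign and 4 gained a call, and in cultured WT over sorted cells 611 kept them, 5 changed sign and 8 lost a call.

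At total counts from 4128414 to 4831831, 6 S phase and 4 mitosis genes had under 20 counts in both M1 and M2. Their ratios of M2 over M1 were not counted. Ratios against Immature were counted where the Immature library held at least 20 counts. The sorted populations have 1 library each and no replicate error. Sex cannot be told apart from genotype, and cultured WT and sorted cells differed in the sex markers too.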
